A study of Mus musculus with 12 samples.

Results

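Aortic endothelial cells lacking Ets1 were compared directly with aortic endothelial cells in which Ets2 had been deleted. Ets1KO cells were Ets1-/- with floxed Ets2 alleles (Ets2 fl/fl) and carried an eGFP lentivirus, and Ets2KO cells were Ets1+/+ with the same floxed alleles and carried an eGFP-Cre lentivirus. Both groups therefore carried floxed Ets2, and they differed in the Ets1 genotype, in the state of Ets2 and in exposure to Cre, which cannot be told apart from the deletion of Ets2. WT cells (Ets1+/+; Ets2+/+, eGFP lentivirus) are shown for position and entered alternative fits only. The cells came from mice of 4 weeks of age and were cultured in serum-containing medium before hybridisation to Affymetrix mouse arrays, with 3 arrays per group. The titles call the arrays biological replicates and nothing else states that they came from separate animals, so p-values measure the spread between these arrays. All probe sets with 1 gene symbol were used, leaving out genes on chromosomes X and Y, which gave 18245 of the 20523 probe sets and 10687 genes. Values are log2 expression as deposited, and each gene was read at its brightest probe set. A difference is Ets1KO minus Ets2KO on the log2 scale, and a gene was called at a limma adjusted p below 0.05 over all probe sets.

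Ets1 and Ets2 are closely related members of the ETS family of transcription factors, which bind DNA at a GGAA core through a shared domain. Both carry a MAPK phosphorylation site that raises their activity in response to growth factors, and endothelial cells express several other family members at the same time. Endothelial enhancers commonly hold ETS sites, and the family is known for roles in angiogenesis, vessel identity, matrix remodelling and survival. The direct comparison asks which transcripts separate cells missing Ets1 from cells missing Ets2.

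The 6 arrays had medians of 9.13 to 9.15 in Ets1KO and 9.06 to 9.08 in Ets2KO. Arrays correlated at 0.945 to 0.978 within Ets1KO and at 0.813 to 0.909 between the groups. Ets2KO replicate 3 stood apart from its own group, at 0.888 and 0.897 with Ets2KO replicates 1 and 2, which correlated at 0.972 with each other. The groups also differed in sex-linked transcripts. Xist, the RNA of the inactive X chromosome, read 13.37, 13.07 and 13.52 in the Ets1KO arrays, against 7.44, 7.50 and 7.34 in the Ets2KO arrays. Eif2s3y, a Y-linked gene, read 3.28, 3.12 and 3.33 in the Ets1KO arrays, against 9.30, 9.39 and 10.23 in the Ets2KO arrays. All Ets1KO arrays thus had the transcripts of female cells and all Ets2KO arrays those of male cells, and sex and genotype cannot be told apart in any difference given here.

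The transcripts of both targeted genes were lower in the cells carrying their mutation, and neither passed the test. Ets1 read 8.31, 8.76 and 9.17 in the Ets1KO arrays, against 9.50, 9.55 and 9.88 in the Ets2KO arrays. The groups did not overlap, and the difference was -0.90 (SE 0.25, adjusted p = 0.0947, exact permutation p = 0.1, two-sided and the smallest that 3 against 3 arrays allow). A second Ets1 probe set differed by -0.94, and the other 2 by 0.04 and -0.06. Ets2 read 10.28, 10.37 and 10.54 in the Ets1KO arrays, against 9.63, 9.35 and 10.13 in the Ets2KO arrays, again without overlap. Its difference was 0.70 (SE 0.22, adjusted p = 0.126, exact permutation p = 0.1), with 0.17 at its other probe set. Without Ets2KO replicate 3, whose Ets2 value was the highest of its group, the Ets2 difference was 0.91 at an adjusted p of 0.0384. Of the 12 measured ETS factors none was called, and the furthest from 0 was Etv4, an ETS factor of the PEA3 group, with 10.96, 10.57 and 10.28 in the Ets1KO arrays, against 9.23, 8.94 and 7.26 in the Ets2KO arrays, a difference of 2.12 (SE 0.53, adjusted p = 0.0817).

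Across the 10687 genes, 424 were called, which is 3.97% of them, with 213 higher in Ets1KO (1.99%) and 211 lower (1.97%). At the level of probe sets, 690 of 18245 (3.78%) were called. Differences were large among the called genes, with a median size regardless of sign of 1.40, 306 genes beyond 1 and 139 beyond 2. Over all 10687 genes, 1132 differed by more than 1 in either direction. The median of the signed differences over all genes was 0.02, which does not measure their size. Without a correction for multiple tests, 2749 genes had p below 0.05, and 3718 genes (34.8%) had groups that did not overlap. Of the 181 called genes with more than 1 probe set, 174 had every probe set in the same direction, and 115 had at least 1 other probe set also called. Agreement in direction was not counted in genes that were not called. Among called probe sets 52.5% were higher in Ets1KO, against 41.7% after subtraction of array medians and 45.7% after quantile normalisation.

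**Figure D1:**
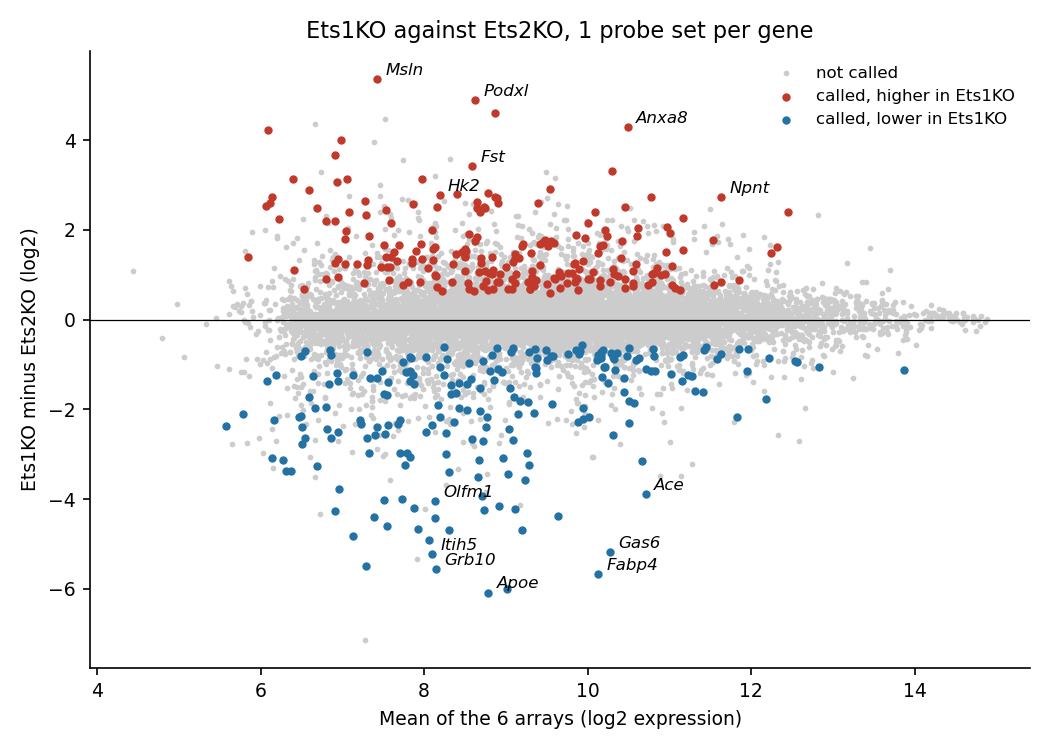
Difference between groups (Ets1KO minus Ets2KO, log2, vertical axis) against the mean of the 6 arrays (log2, horizontal axis) for 10687 genes. Red points are the 213 genes called higher in Ets1KO, blue points the 211 called lower and grey points the genes not called. Lower calls reach beyond -6 and higher calls beyond 5.

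The number of calls moved with the arrays used. Direction was kept, as it had to be where the groups did not overlap. With Ets1KO replicate 1 left out 316 genes were called, with Ets1KO replicate 2 left out 34, and with Ets1KO replicate 3 left out 50. The count was 146 without Ets2KO replicate 1, 102 without Ets2KO replicate 2 and 651 without Ets2KO replicate 3. All 6 of these fits kept the call of 26 genes, 7 higher and 19 lower in Ets1KO, and none of them kept the call of 41. The call was kept in 1 fit for 166 genes, in 2 for 111, in 3 for 34, in 4 for 31 and in 5 for 15. Where a later paragraph gives the adjusted p of a called gene without 1 array, it is the highest of the 6 fits. The call of such a gene may have been lost in other fits too. With WT as a further group 22 of the 26 kept their call. Plxdc2 lost its call in that fit, and Msln lost its call in the fit with WT and the arrays labelled DKO. These 26 genes, chosen after their values were seen, included Msln, Podxl, Apoe, Itih5, Klhl22, Plxdc2, Lnx1, Ace, Gcnt2, Map1b, Gucy1a2, Ints6, Ptk7, Rin2, Ubash3b, Adam23, Herc3, Zfp518b, Zfp105, Slc22a4, Scarf2, Trabd2b, Cdc42bpg, Olfm1 and Rnf130.

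Msln, Podxl, Npnt and Ezr were among the 15 genes with the largest called differences above 0. The 15 in each direction were taken only from genes whose groups did not overlap, so a lack of overlap in them was a condition of choice. Msln, the surface glycoprotein mesothelin that is typical of the mesothelial lining of body cavities, read 9.91, 10.36 and 10.06 in the Ets1KO arrays, against 4.93, 4.41 and 4.90 in the Ets2KO arrays. Every Ets1KO array was far above every Ets2KO array, a 41.2-fold difference of 5.36 (SE 0.20, adjusted p = 0.000793), and it was called in all 6 fits that left out 1 array. No detection floor was set, so a fold is approximate where the lower group reads low, as here. The WT arrays read 5.06, 5.90 and 10.09 for Msln, so that WT replicate 3 lay among the Ets1KO arrays and the other WT arrays lay lower. Podxl, the sialomucin podocalyxin of podocytes and of the luminal face of endothelium, read 11.20, 10.89 and 11.12 in the Ets1KO arrays, against 6.23, 6.25 and 6.06 in the Ets2KO arrays. Its arrays were tightly grouped, with a 29.6-fold difference of 4.89 (SE 0.14, adjusted p = 0.000335) and 2.84 at its other probe set. Ezr encodes ezrin, which ties membrane proteins including podocalyxin to actin, and read 12.28, 12.15 and 11.97 in the Ets1KO arrays, against 9.84, 9.35 and 9.04 in the Ets2KO arrays. The groups were well apart at this probe set, a difference of 2.72 (SE 0.23, adjusted p = 0.00679), but the other Ezr probe set differed by 0.19, and without Ets1KO replicate 2 its adjusted p was 0.051. Npnt, nephronectin, a basement membrane ligand of integrins, read 12.90, 13.13 and 12.96 in the Ets1KO arrays, against 9.80, 10.46 and 10.54 in the Ets2KO arrays. Its difference of 2.73 (SE 0.22, adjusted p = 0.00674) was met by 2.15 to 2.98 at its other 4 probe sets, and without Ets1KO replicate 2 its adjusted p was 0.0501.

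The ETS motif CCGGAAG was searched on both strands (reverse complement CTTCCGG) in RefSeq promoters of GRCm38.p6, each holding 250 bases before and 50 after a gene's start, which were found for 8629 of the 10687 genes. It was present in 20.7% of all promoters, in 18 of 157 (11.5%) of genes called higher and in 21 of 176 (11.9%) of genes called lower in Ets1KO. Windows from 4 called genes are shown because each holds the letters of the motif of the family whose members were deleted, in capitals, read 5′ to 3′ on the gene's own strand. Zfp105, a zinc finger protein, read 4.39, 5.06 and 4.42 in the Ets1KO arrays, against 7.92, 7.85 and 8.22 in the Ets2KO arrays, a difference of -3.37 (SE 0.22, adjusted p = 0.00398). Ezr was called higher, and Klhl22, Map1b and Zfp105 kept their calls in all 6 fits that left out 1 array. A match is a description of letters and not a site of binding.
Ezr, chr17:6782929-6782995, minus strand: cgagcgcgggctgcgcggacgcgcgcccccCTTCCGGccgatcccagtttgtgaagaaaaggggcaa
Klhl22, chr16:17759468-17759534, plus strand: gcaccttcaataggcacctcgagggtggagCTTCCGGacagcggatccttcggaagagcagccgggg
Map1b, chr13:99516809-99516852, minus strand: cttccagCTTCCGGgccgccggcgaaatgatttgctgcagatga
Zfp105, chr9:122923007-122923073, plus strand: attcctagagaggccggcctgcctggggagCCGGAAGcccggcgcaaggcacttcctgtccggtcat
In Ezr, Klhl22 and Map1b the capitals are the reverse complement, and in Zfp105 they are the motif as written.

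Other genes higher in Ets1KO came from several classes. Anxa8, an annexin that binds membrane phospholipids in the presence of calcium, read 13.98, 11.97 and 11.96 in the Ets1KO arrays, against 8.43, 8.45 and 8.14 in the Ets2KO arrays. All Ets1KO arrays were above all Ets2KO arrays at a difference of 4.30 (SE 0.56, adjusted p = 0.0216), with 4.33 at the other probe set, and without Ets1KO replicate 2 its adjusted p was 0.0725. Plac8, a small cysteine-rich protein, read 12.49, 10.35 and 10.66 in the Ets1KO arrays, against 6.80, 6.22 and 6.71 in the Ets2KO arrays, a 24.1-fold difference of 4.59 (SE 0.57, adjusted p = 0.02), and without Ets1KO replicate 3 its adjusted p was 0.0704. Fst encodes follistatin, a secreted protein that binds and blocks activins. It read 10.94, 10.07 and 9.89 in the Ets1KO arrays, against 6.11, 7.42 and 7.08 in the Ets2KO arrays, and the groups were apart at a difference of 3.43 (SE 0.42, adjusted p = 0.02), and without Ets1KO replicate 2 its adjusted p was 0.0852. The WT arrays read 9.84, 11.56 and 10.39 for Fst and so lay with Ets1KO. Prelp, a leucine-rich proteoglycan of connective tissue, read 10.99, 10.12 and 9.62 in the Ets1KO arrays, against 7.57, 7.50 and 7.56 in the Ets2KO arrays, without overlap, at a difference of 2.70 (SE 0.34, adjusted p = 0.02), and without Ets1KO replicate 2 its adjusted p was 0.0958. The remaining large differences with calls above 0 were those of Aldh3a1 (3.32), an aldehyde dehydrogenase, Wfdc3 (3.13), a secreted WAP-domain protein, Eno3 (2.90), the muscle enolase, Ildr2 (2.83), a membrane protein with an immunoglobulin-like domain, Gdpd1 (2.80), a glycerophosphodiester phosphodiesterase, and Sh2d4a (2.72), an adaptor with an SH2 domain. A lack of overlap was a condition for choosing these 6 genes, and each lost its call in at least 2 of the 6 fits that left out 1 array.

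**Figure D2:**
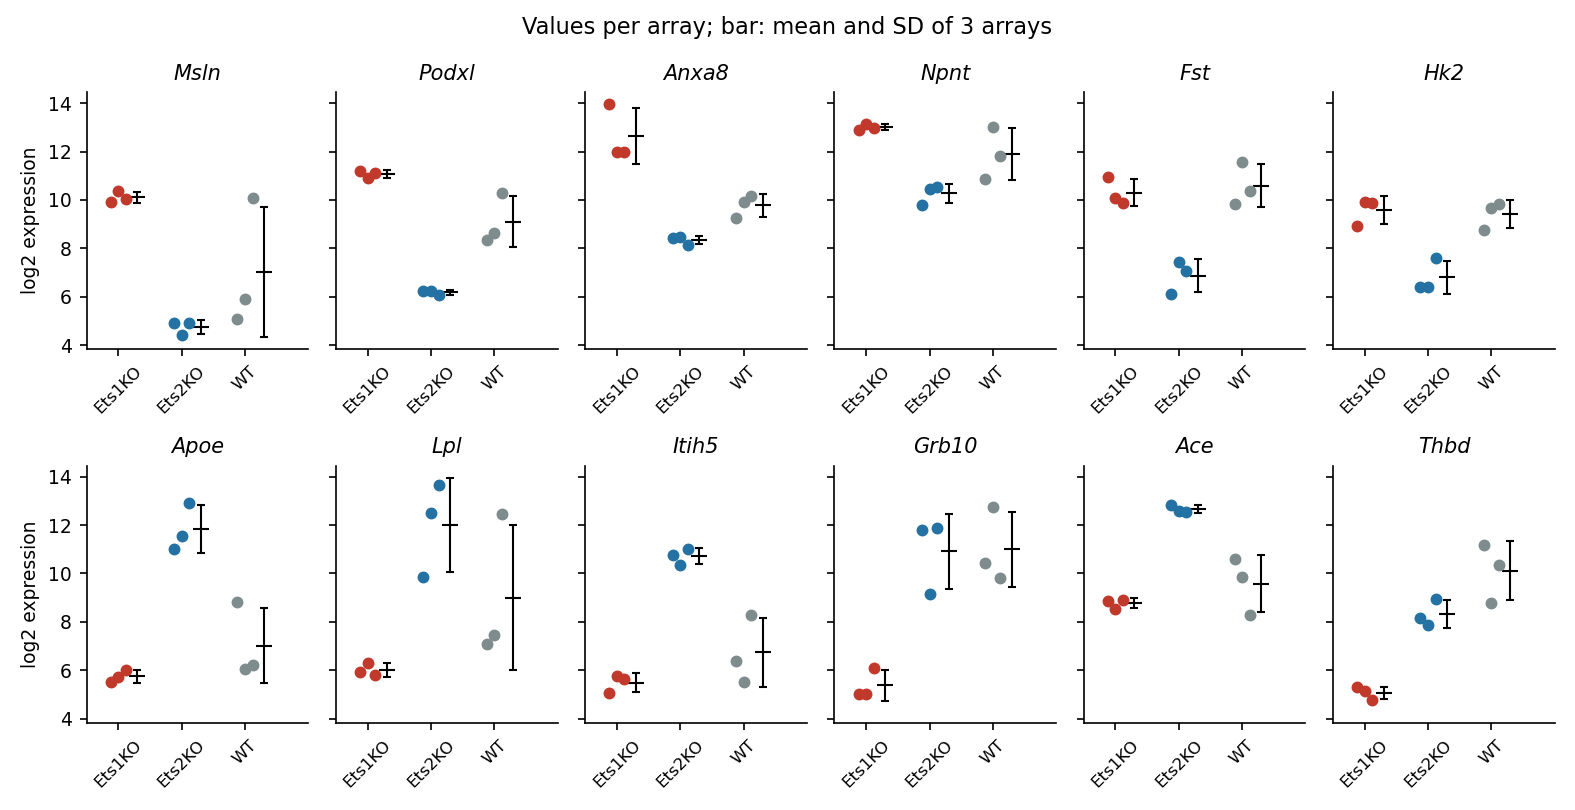
Log2 expression (vertical axis) of 12 called genes in each array of Ets1KO (red), Ets2KO (blue) and WT (grey), with the mean and SD of 3 arrays as a bar beside the points. Genes in the upper row were higher in Ets1KO than in Ets2KO and genes in the lower row were lower. Those groups do not overlap, which was a condition of choice for all genes shown except Ace and Thbd.

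Genes that handle lipids were among those furthest below Ets2KO. Apoe, the apolipoprotein that carries lipoproteins to their receptors, read 5.50, 5.71 and 6.03 in the Ets1KO arrays, against 10.998, 11.56 and 12.92 in the Ets2KO arrays. The groups were 67.7-fold apart, a difference of -6.08 (SE 0.49, adjusted p = 0.00656), and Apoe was called in all 6 fits that left out 1 array. The Ets1KO values were low and no detection floor was set, so the fold is approximate. The WT arrays read 8.81, 6.06 and 6.20 for Apoe, all below the Ets2KO arrays and all above the Ets1KO arrays. Lpl, lipoprotein lipase, which releases fatty acids from circulating triglyceride, read 5.92, 6.31 and 5.79 in the Ets1KO arrays, against 9.87, 12.50 and 13.67 in the Ets2KO arrays. The Ets2KO arrays spread over a wide range above the Ets1KO arrays, the difference was -6.01 (SE 0.92, adjusted p = 0.031), and without Ets1KO replicate 2 its adjusted p was 0.124. Fabp4, a fatty acid binding protein of adipocytes and capillary endothelium, read 5.43, 8.68 and 7.77 in the Ets1KO arrays, against 11.97, 13.19 and 13.71 in the Ets2KO arrays, a difference of -5.67 (SE 0.89, adjusted p = 0.0328), and without Ets1KO replicate 3 its adjusted p was 0.108. Cd36, a fatty acid translocase of the same cells and of macrophages, read 4.55, 4.91 and 4.70 in the Ets1KO arrays, against 8.07, 9.26 and 11.30 in the Ets2KO arrays, a difference of -4.83 (SE 0.77, adjusted p = 0.0335), and without Ets1KO replicate 2 its adjusted p was 0.133. Of the 28 measured genes of the lipid handling list, 6 were called lower (Apoe, Lpl, Fabp4, Cd36, Acot11 and Vldlr) and 0 higher, against 1.97% of all genes called lower and 1.99% called higher, and the list median was -0.21. Acot11, an acyl-CoA thioesterase, differed by -2.66 (adjusted p = 0.0228), and Vldlr, a receptor for lipoproteins rich in triglyceride, by -2.57 (adjusted p = 0.0388). Without Ets1KO replicate 2 or 3, 1 of the 28 was called lower, without Ets1KO replicate 1 or Ets2KO replicate 1 there were 4, and without Ets2KO replicate 2 there were 2. Without Ets2KO replicate 3, 6 were called lower and 1 higher, with a list median of 0.07.

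Markers of adipocytes moved with these genes. All 7 measured members of the 12-gene adipocyte list were below 0 with no overlap between the groups (34.8% of all genes did not overlap), the list median was -4.37 and 3 were called lower (Lpl, Fabp4 and Pparg), against 1.97% of all genes. Pparg, the nuclear receptor that drives adipocyte differentiation, read 8.65, 6.48 and 7.23 in the Ets1KO arrays, against 11.61, 11.64 and 12.22 in the Ets2KO arrays, a difference of -4.37 (SE 0.54, adjusted p = 0.02), and without Ets1KO replicate 3 its adjusted p was 0.085. Adipoq, the adipocyte hormone adiponectin, read 3.70, 3.63 and 3.80 in the Ets1KO arrays, against 7.15, 12.16 and 13.22 in the Ets2KO arrays. Its values were close together in Ets1KO and far above them and widely spread in Ets2KO, a difference of -7.13 (SE 1.51, adjusted p = 0.0592) that missed the threshold and was singled out after its values were seen. The mean of the 7 genes was 6.78, 7.004 and 6.63 in the Ets1KO arrays, against 9.53, 10.74 and 11.61 in the Ets2KO arrays, so each Ets2KO array was above each Ets1KO array. The WT arrays had list means of 8.04, 7.32 and 10.68, with WT replicate 3 in the Ets2KO range. In bulk RNA, fewer cells of a type and less RNA per cell cannot be told apart, and the part of adipocyte-like cells in the lower lipid genes was not tested. The list shares Lpl and Fabp4 with the lipid handling list. None of the 3 calls was kept without Ets1KO replicate 2, Ets1KO replicate 3 or Ets2KO replicate 2. Without Ets1KO replicate 1 those of Pparg and Fabp4 were kept, and without Ets2KO replicate 1 that of Lpl was kept and Adipoq was called in addition.

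Mesothelial markers lay on the other side. The list had 4 measured members of 8, all above 0, with a median of 1.45 and 1 called higher, Msln (1.99% of all genes were called higher). Krt19, a keratin of simple epithelia, read 14.28, 13.98 and 13.70 in the Ets1KO arrays, against 12.67, 11.57 and 10.74 in the Ets2KO arrays, a difference of 2.32 (SE 0.48, adjusted p = 0.0576) that was not called and was singled out after its values were seen. List means were 9.56, 9.79 and 9.42 in the Ets1KO arrays, against 7.82, 7.35 and 7.26 in the Ets2KO arrays, with no overlap. The other 2 members, Krt8 and Upk1b, differed by 0.57 and 0.19. WT had list means of 6.74, 7.83 and 9.23, and the part of mesothelial cells in the genes higher in Ets1KO was not tested.

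Endothelial markers themselves could be read only in part. Of the 35 listed genes 13 had a probe set in the values used, and the defining markers Pecam1, Cdh5, Tek, Tie1 and Vwf were not among them. The list median was -0.46, 3 genes were called lower and 1 higher (1.97% and 1.99% of all genes), and list means were 8.02, 7.85 and 7.63 in the Ets1KO arrays, against 8.47, 8.61 and 8.56 in the Ets2KO arrays, without overlap. Thbd, thrombomodulin, which turns thrombin into an anticoagulant on the endothelial surface, read 5.29, 5.12 and 4.78 in the Ets1KO arrays, against 8.15, 7.85 and 8.96 in the Ets2KO arrays. The groups were clearly apart, a difference of -3.26 (SE 0.31, adjusted p = 0.0106), and without Ets1KO replicate 2 its adjusted p was 0.0641. The WT arrays read 11.19, 8.78 and 10.37, with the lowest inside the Ets2KO range and the others above it. Cd34, a sialomucin of vascular endothelium and progenitors, read 6.27, 8.30 and 7.67 in the Ets1KO arrays, against 10.73, 10.88 and 9.91 in the Ets2KO arrays, a difference of -3.09 (SE 0.55, adjusted p = 0.0419), and without Ets1KO replicate 3 its adjusted p was 0.126. Eng, endoglin, a co-receptor for BMP ligands, read 8.29, 8.29 and 8.32 in the Ets1KO arrays, against 9.91, 10.82 and 10.41 in the Ets2KO arrays, a difference of -2.08 (SE 0.24, adjusted p = 0.0163), and without Ets1KO replicate 2 its adjusted p was 0.0835. Aplnr, the apelin receptor of sprouting vessels, went the other way, with 6.65, 6.77 and 6.20 in the Ets1KO arrays, against 5.14, 4.78 and 5.52 in the Ets2KO arrays, a difference of 1.39 (SE 0.24, adjusted p = 0.0408), and without Ets1KO replicate 2 its adjusted p was 0.154. The receptors for VEGF, Kdr and Flt1, differed by -0.08 and 0.28 and were not called. None of the 3 lower calls was kept without Ets1KO replicate 2 or 3, and those of Eng and Thbd were kept without Ets2KO replicate 1 or 2. The call of Aplnr was kept only without Ets2KO replicate 3.

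Notch genes and genes of vessel tone held calls in both directions. Notch1, a receptor that directs arterial fate, read 8.81, 8.44 and 8.63 in the Ets1KO arrays, against 10.48, 10.20 and 10.85 in the Ets2KO arrays. The groups did not overlap, the difference was -1.88 (SE 0.20, adjusted p = 0.0155) with -0.95 at the other probe set, and without Ets1KO replicate 2 its adjusted p was 0.0738. Lnx1, a ubiquitin ligase of the Notch inhibitor Numb, read 7.56, 7.59 and 7.42 in the Ets1KO arrays, against 9.37, 9.48 and 9.74 in the Ets2KO arrays, a difference of -2.01 (SE 0.14, adjusted p = 0.00489), and kept its call in all 6 fits that left out 1 array. Gja4, a gap junction connexin of arterial endothelium, read 7.68, 7.98 and 8.45 in the Ets1KO arrays, against 6.57, 5.87 and 5.75 in the Ets2KO arrays, a difference of 1.98 (SE 0.29, adjusted p = 0.0301), and without Ets1KO replicate 2 its adjusted p was 0.121. These were the 3 calls among 13 measured Notch and arteriovenous genes, whose median was -0.09, against 3.97% of all genes called. Ace, angiotensin-converting enzyme on the endothelial surface, read 8.87, 8.54 and 8.91 in the Ets1KO arrays, against 12.84, 12.58 and 12.55 in the Ets2KO arrays. Its arrays were tightly grouped on each side of a 14.8-fold difference of -3.89 (SE 0.16, adjusted p = 0.00101), with -3.46 at the other probe set, and the call was kept in all 6 fits. WT read 10.60, 9.83 and 8.30 for Ace, with 1 array below the Ets1KO mean. Ptgs2, the inducible cyclooxygenase, read 8.40, 8.17 and 8.81 in the Ets1KO arrays, against 5.88, 6.09 and 4.25 in the Ets2KO arrays, higher in Ets1KO at a difference of 3.06 (SE 0.50, adjusted p = 0.0361), and without Ets1KO replicate 2 its adjusted p was 0.13. With Thbd, these were the 3 calls among 11 measured genes of vascular tone and coagulation, against the same 3.97%. Sema3e, a guidance ligand of plexin D receptors, was the 1 call among 24 VEGF and guidance genes, a share near the 3.97% of all genes, lower in Ets1KO at a difference of -1.23 (SE 0.19, adjusted p = 0.0308), and without Ets1KO replicate 2 its adjusted p was 0.121. Members of this list ranged from -2.095 to 4.349. The Sema3e call was kept only without Ets2KO replicate 3, which added Vegfa, Angpt1, Angptl4 and Sema3f. Esm1 was called without Ets1KO replicate 1.

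Further large differences below 0 came from genes of several classes. Grb10, an imprinted adaptor that inhibits insulin receptor signalling, read 5.02, 5.01 and 6.09 in the Ets1KO arrays, against 11.78, 9.13 and 11.86 in the Ets2KO arrays. Ets2KO replicate 2 was lower than the others of its group and still above all Ets1KO arrays, the difference was -5.55 (SE 0.78, adjusted p = 0.0269), and without Ets1KO replicate 2 its adjusted p was 0.121. The other Grb10 probe sets differed by -2.50 (adjusted p = 0.0586) and -1.14 (adjusted p = 0.183) and were not called. Gnai1, an inhibitory G protein subunit, read 5.36, 4.15 and 4.13 in the Ets1KO arrays, against 10.28, 10.83 and 9.02 in the Ets2KO arrays, a difference of -5.49 (SE 0.55, adjusted p = 0.0126), and without Ets1KO replicate 2 its adjusted p was 0.0702. Gas6, a ligand of the TAM receptor kinases, read 6.93, 8.37 and 7.77 in the Ets1KO arrays, against 12.14, 12.37 and 14.09 in the Ets2KO arrays. The Ets2KO arrays were all higher, a difference of -5.17 (SE 0.61, adjusted p = 0.0171), and without Ets1KO replicate 3 its adjusted p was 0.075. Mapk13, a p38 kinase, read 6.87, 6.79 and 6.91 in the Ets1KO arrays, against 12.46, 10.94 and 11.24 in the Ets2KO arrays, a difference of -4.69 (SE 0.39, adjusted p = 0.00679), and without Ets1KO replicate 2 its adjusted p was 0.051. Itih5, a member of the inter-alpha-trypsin inhibitor heavy chains that bind hyaluronan, read 5.05, 5.78 and 5.63 in the Ets1KO arrays, against 10.77, 10.37 and 11.01 in the Ets2KO arrays. It was called in all 6 fits that left out 1 array, at -5.23 (SE 0.26, adjusted p = 0.00248). Klhl22, an adaptor of a cullin ubiquitin ligase, read 5.69, 5.58 and 5.54 in the Ets1KO arrays, against 9.79, 10.59 and 11.16 in the Ets2KO arrays, a difference of -4.91 (SE 0.34, adjusted p = 0.00428). Plxdc2, a transmembrane protein with a plexin domain, read 5.61, 6.27 and 5.99 in the Ets1KO arrays, against 10.35, 10.52 and 11.09 in the Ets2KO arrays, a difference of -4.70 (SE 0.26, adjusted p = 0.00339). Both Klhl22 and Plxdc2 also kept their calls in all 6 fits. P2ry6, a receptor for uridine diphosphate, differed by -4.42 (SE 0.55, adjusted p = 0.02), and without Ets1KO replicate 2 its adjusted p was 0.0991. Gm2115 differed by -4.39 (SE 0.43, adjusted p = 0.0115), and without Ets1KO replicate 2 its adjusted p was 0.0689.

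Genes of TGF-beta and BMP signalling and of the matrix held calls in both directions. Bmp2, a bone morphogenetic protein ligand, read 5.82, 4.68 and 5.23 in the Ets1KO arrays, against 10.82, 9.68 and 9.05 in the Ets2KO arrays. Its Ets1KO arrays were all below its Ets2KO arrays, a difference of -4.61 (SE 0.50, adjusted p = 0.0155), and without Ets1KO replicate 2 its adjusted p was 0.0725. Ltbp2, a matrix protein of the latent TGF-beta binding family, read 4.79, 5.64 and 6.36 in the Ets1KO arrays, against 8.45, 11.45 and 10.88 in the Ets2KO arrays, a difference of -4.66 (SE 0.83, adjusted p = 0.0427), and without Ets1KO replicate 2 its adjusted p was 0.154. The call of Ltbp2 was kept only without Ets2KO replicate 1. With Fst above 0, Bmp2 and Ltbp2 made up the 3 calls among 28 measured members, 14 above and 14 below 0, with a median of -0.01, against 3.97% of all genes called. Of 33 matrix and integrin genes, 2 were called higher (Prelp and Col8a1) and 1 lower (Itih5), with a median of -0.30, against 1.99% of all genes called higher and 1.97% called lower. Col8a1, a short-chain collagen of vessel walls, read 10.56, 10.47 and 10.75 in the Ets1KO arrays, against 9.28, 9.47 and 9.12 in the Ets2KO arrays, without overlap, a difference of 1.30 (SE 0.15, adjusted p = 0.0165), and without Ets1KO replicate 2 its adjusted p was 0.0725. Of 11 fibroblast markers 5 were above and 6 below 0, with a median of -0.26, and 2 were called lower (1.97% of all genes). Dpt, the matrix protein dermatopontin, was lower in Ets1KO at a difference of -3.93 (SE 0.59, adjusted p = 0.0307) and Pdgfra, a growth factor receptor of mesenchymal cells, differed by -1.77 (SE 0.20, adjusted p = 0.0165). Without Ets1KO replicate 2 their adjusted p-values were 0.13 and 0.0725, and both calls were lost without Ets1KO replicate 2, Ets1KO replicate 3 or Ets2KO replicate 2, that of Dpt also without Ets2KO replicate 1. The collagens Col1a1 and Col1a2 lay the other way, at 2.46 and 1.59, and were not called in the fit to all 6 arrays. Fibroblast list means were 8.56, 9.21 and 9.51 in the Ets1KO arrays, against 9.11, 9.73 and 10.27 in the Ets2KO arrays and overlapped, and their part in the matrix genes was not tested.

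Genes of cholesterol synthesis held calls above 0 only, in the fit to all 6 arrays. Of 18 measured members of the list 8 were called higher and 0 lower, against 1.99% of all genes called higher, 17 were above 0, and the median was 1.18. Msmo1, a sterol methyl oxidase, read 10.82, 11.24 and 10.33 in the Ets1KO arrays, against 8.72, 8.71 and 9.34 in the Ets2KO arrays. The groups were apart at a difference of 1.87 (SE 0.29, adjusted p = 0.0313), and without Ets1KO replicate 2 its adjusted p was 0.115. Sqle, squalene epoxidase, which performs the first oxygenation of the pathway, read 11.04, 11.25 and 10.75 in the Ets1KO arrays, against 9.58, 9.18 and 9.30 in the Ets2KO arrays, a difference of 1.66 (SE 0.18, adjusted p = 0.0155), and without Ets1KO replicate 2 its adjusted p was 0.0725. Fdps, the synthase of farnesyl diphosphate, read 10.95, 12.03 and 10.90 in the Ets1KO arrays, against 9.30, 9.56 and 9.78 in the Ets2KO arrays, a difference of 1.75 (SE 0.33, adjusted p = 0.0485), and without Ets2KO replicate 2 its adjusted p was 0.131. Stard4, a carrier of cholesterol between membranes, differed by 1.69 (SE 0.30, adjusted p = 0.0408), and without Ets1KO replicate 2 its adjusted p was 0.129. The other calls were Idi1 (1.46), an isomerase of the isoprenoid steps, Cyp51 (1.56) and Sc5d (1.50), enzymes of sterol ring modification, and Srebf2 (1.12), the transcription factor that activates the pathway when sterols are low. List means were 9.68, 10.03 and 9.27 in the Ets1KO arrays, against 8.38, 8.40 and 8.83 in the Ets2KO arrays, and every Ets1KO array was above every Ets2KO array. The WT arrays, at 9.33, 10.19 and 9.77, overlapped the Ets1KO range and lay above the Ets2KO range. The 8 calls became 2 without Ets1KO replicate 1, Ets1KO replicate 3 or Ets2KO replicate 1, and 0 without Ets1KO replicate 2 or Ets2KO replicate 2, with list medians of 1.07 to 1.30 over the 6 fits.

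Genes induced by low oxygen and genes of glycolysis held a few calls above 0. Of 29 measured members, 3 were called higher and 0 lower, against 1.99% of all genes called higher, 25 were above 0 and the median was 0.69. Hk2, the hexokinase that commits glucose to glycolysis, read 8.92, 9.92 and 9.88 in the Ets1KO arrays, against 6.40, 6.42 and 7.60 in the Ets2KO arrays. All Ets1KO arrays were above all Ets2KO arrays, a difference of 2.77 (SE 0.43, adjusted p = 0.0313), and without Ets1KO replicate 2 its adjusted p was 0.133. Egln3, a prolyl hydroxylase that marks hypoxia-inducible factors for degradation, read 8.70, 10.29 and 9.23 in the Ets1KO arrays, against 6.51, 7.31 and 6.87 in the Ets2KO arrays, a difference of 2.51 (SE 0.43, adjusted p = 0.0397), and without Ets1KO replicate 3 its adjusted p was 0.122. P4ha2, a collagen prolyl hydroxylase subunit, read 10.15, 10.18 and 9.73 in the Ets1KO arrays, against 8.29, 8.05 and 8.77 in the Ets2KO arrays, a difference of 1.65 (SE 0.23, adjusted p = 0.026), and without Ets1KO replicate 2 its adjusted p was 0.12. WT read 8.76, 9.66 and 9.82 for Hk2 and 9.03, 9.93 and 9.84 for Egln3, overlapping Ets1KO and not Ets2KO in both. List means were 9.90, 10.70 and 10.39 in the Ets1KO arrays, against 9.28, 9.46 and 9.89 in the Ets2KO arrays, with Ets2KO replicate 3 just below Ets1KO replicate 1. The list had 6 calls without Ets1KO replicate 1, of which Hk2 and Egln3 were among the 3, and 5 without Ets2KO replicate 3, of which Hk2 and P4ha2 were. It had 0 without any 1 of the other 4 arrays.

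The core letters of the hypoxia response element, ACGTG, were searched on both strands (reverse complement CACGT) in the same promoters. They were present in 29.7% of all promoters, in 46 of 157 (29.3%) of genes called higher, in 54 of 176 (30.7%) of genes called lower and in 20 of 27 (74.1%) promoters of the hypoxia and glycolysis list, which was made up largely of known targets of the factors that bind it. The windows shown hold the letters, in capitals, in the 3 called genes of the list.
Hk2, chr6:82774646-82774704, minus strand: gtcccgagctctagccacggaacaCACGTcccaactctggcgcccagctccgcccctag
Hk2, chr6:82774472-82774536, minus strand: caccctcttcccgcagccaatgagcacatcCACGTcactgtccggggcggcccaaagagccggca
Egln3, chr12:54204069-54204124, minus strand: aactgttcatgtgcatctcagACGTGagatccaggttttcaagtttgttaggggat
P4ha2, chr11:54100816-54100880, plus strand: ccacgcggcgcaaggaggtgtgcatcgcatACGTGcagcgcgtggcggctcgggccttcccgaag
Both Hk2 windows carry the reverse complement, and the windows of Egln3 and P4ha2 carry the letters as written. ACGTG can overlap the E-box CACGTG, and these matches state nothing about binding.

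Immediate-early and stress genes had a few calls. Of 26 measured immediate-early genes, 3 were called higher and 0 lower, against 1.99% of all genes called higher, 21 were above 0 and the median was 0.82. Ccn2, a secreted matricellular protein also known as connective tissue growth factor, read 13.99, 13.12 and 13.81 in the Ets1KO arrays, against 11.21, 11.05 and 11.50 in the Ets2KO arrays. The groups did not overlap, the difference was 2.39 (SE 0.26, adjusted p = 0.0155), and without Ets1KO replicate 3 its adjusted p was 0.0704. Nr4a1, an orphan nuclear receptor induced by growth factors, read 9.58, 9.69 and 9.21 in the Ets1KO arrays, against 7.80, 7.62 and 7.83 in the Ets2KO arrays, a difference of 1.74 (SE 0.17, adjusted p = 0.0106), and without Ets1KO replicate 2 its adjusted p was 0.0596. Maff, a small Maf factor, read 9.46, 9.16 and 9.20 in the Ets1KO arrays, against 7.51, 7.76 and 7.99 in the Ets2KO arrays, a difference of 1.52 (SE 0.17, adjusted p = 0.0162), and without Ets1KO replicate 2 its adjusted p was 0.0732. The immediate-early calls became 1 without Ets1KO replicate 2, Ets1KO replicate 3 or Ets2KO replicate 2. Trib3, a pseudokinase induced by amino acid and unfolded protein stress, was the 1 call among 24 endoplasmic reticulum stress genes (3.97% of all genes were called), higher in Ets1KO at a difference of 1.62 (SE 0.28, adjusted p = 0.0388), and without Ets1KO replicate 2 its adjusted p was 0.149. Among 16 chemokine, cytokine and adhesion genes 3 were called, against 3.97% of all genes. Tnfaip2 was lower in Ets1KO at a difference of -3.15 (SE 0.47, adjusted p = 0.0305) and Selp, the leukocyte adhesion receptor P-selectin, differed by -2.97 (SE 0.50, adjusted p = 0.0381), while Ptgs2 was higher. The other Selp probe sets differed by -1.91 (adjusted p = 0.0758) and -2.63 (adjusted p = 0.056) and were not called. All 3 calls of this list were lost in 5 of the 6 fits that left out 1 array and kept without Ets2KO replicate 3, and without Ets1KO replicate 2 the adjusted p was 0.124 for Tnfaip2 and 0.146 for Selp. Cd14, a co-receptor for bacterial lipopolysaccharide on monocytes, was the 1 call among 6 macrophage and leukocyte markers (3.97% of all genes), higher in Ets1KO at a difference of 2.60 (SE 0.42, adjusted p = 0.0335), and without Ets1KO replicate 2 its adjusted p was 0.11.

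Replication and mitosis genes had a list median that rested largely on 1 array. All 36 measured members were above 0, with a median of 1.35, and 0 were called by limma, with 4 at an unadjusted p below 0.05. List means were 10.93, 10.92 and 11.61 in the Ets1KO arrays, against 11.001, 10.83 and 7.48 in the Ets2KO arrays, so Ets2KO replicate 3 was far below every other array. Without Ets2KO replicate 3 the list median was 0.22 and 2 were called that had not been. The members furthest from 0 were Cdc6 and Cdt1, which load the replicative helicase. Cdc6 read 8.72, 8.41 and 9.13 in the Ets1KO arrays, against 7.40, 7.61 and 4.20 in the Ets2KO arrays, a difference of 2.35 (SE 0.91, adjusted p = 0.177). Cdt1 read 11.18, 11.79 and 12.04 in the Ets1KO arrays, against 9.93, 10.26 and 8.18 in the Ets2KO arrays, a difference of 2.22 (SE 0.57, adjusted p = 0.0853). In both genes Ets2KO replicate 3 was lowest, and the other Ets2KO arrays were also below every Ets1KO array. The 2 calls made without Ets2KO replicate 3 were those of Cdc6 and Cdt1, which were not called in the fit to all 6 arrays.

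Genes induced by p53 leaned the other way, with small differences in those called. Of 22 measured, 4 were called lower and 0 higher, against 1.97% of all genes called lower, and the median was -0.49. Of these 22, 15 were below and 7 above 0, over a range of -1.98 to 1.37. Cdkn1a, the inhibitor of cyclin-dependent kinases p21, read 12.53, 12.30 and 12.09 in the Ets1KO arrays, against 13.23, 13.35 and 13.49 in the Ets2KO arrays. The arrays did not overlap, the difference was -1.05 (SE 0.16, adjusted p = 0.0305), and without Ets1KO replicate 2 its adjusted p was 0.13. Phlda3, an inhibitor of Akt, differed by -0.93 (SE 0.18, adjusted p = 0.0481), Aen, a nuclease of apoptosis, differed by -0.78 (SE 0.13, adjusted p = 0.0372), and Zmat3, an RNA-binding zinc finger protein, differed by -0.76 (SE 0.12, adjusted p = 0.0308). The other Aen probe sets differed by -0.70 (adjusted p = 0.0658) and -0.37 (adjusted p = 0.213) and were not called. Of the 4 calls, those of Cdkn1a and Phlda3 were kept without Ets1KO replicate 1, those of Cdkn1a, Zmat3 and Aen without Ets2KO replicate 3, which added Mdm2 and Ei24, and 0 without any 1 of the other 4 arrays.

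Imprinted genes held calls below 0 in Ets1KO. Of 12 measured, 4 were called lower (Grb10, Peg3, Plagl1 and Igf2r) and 0 higher, against 1.97% of all genes called lower, 10 were below 0 and the median was -1.01. Peg3, a zinc finger protein expressed from the paternal allele, read 7.52, 6.57 and 6.45 in the Ets1KO arrays, against 10.03, 11.04 and 11.89 in the Ets2KO arrays. The groups did not overlap, the difference was -4.14 (SE 0.52, adjusted p = 0.02), and without Ets1KO replicate 2 its adjusted p was 0.103. Plagl1, a zinc finger regulator of an imprinted gene network, read 5.05, 5.32 and 4.84 in the Ets1KO arrays, against 8.42, 7.84 and 10.26 in the Ets2KO arrays, a difference of -3.77 (SE 0.61, adjusted p = 0.0344), and without Ets1KO replicate 2 its adjusted p was 0.131. Igf2r, the receptor that clears insulin-like growth factor 2, read 11.06, 10.58 and 10.20 in the Ets1KO arrays, against 12.01, 12.18 and 12.48 in the Ets2KO arrays, a difference of -1.61 (SE 0.25, adjusted p = 0.0319), and without Ets1KO replicate 2 its adjusted p was 0.136. List means were 9.26, 8.92 and 8.98 in the Ets1KO arrays, against 10.46, 10.60 and 11.32 in the Ets2KO arrays, with no overlap. Of the 4 calls, those of Peg3 and Igf2r were kept without Ets1KO replicate 1, which added Meg3, that of Peg3 without Ets2KO replicate 1, that of Grb10 without Ets2KO replicate 2 and none without Ets1KO replicate 2 or 3. Col1a1, Col1a2, Mdm2, Ei24 and Meg3 were singled out after their values were seen. Hoxc9 was the 1 call among 17 Hox genes (3.97% of all genes were called), which mark position along the body, lower in Ets1KO at a difference of -1.16 (SE 0.15, adjusted p = 0.0219), and without Ets1KO replicate 3 its adjusted p was 0.0884.

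**Figure D3:**
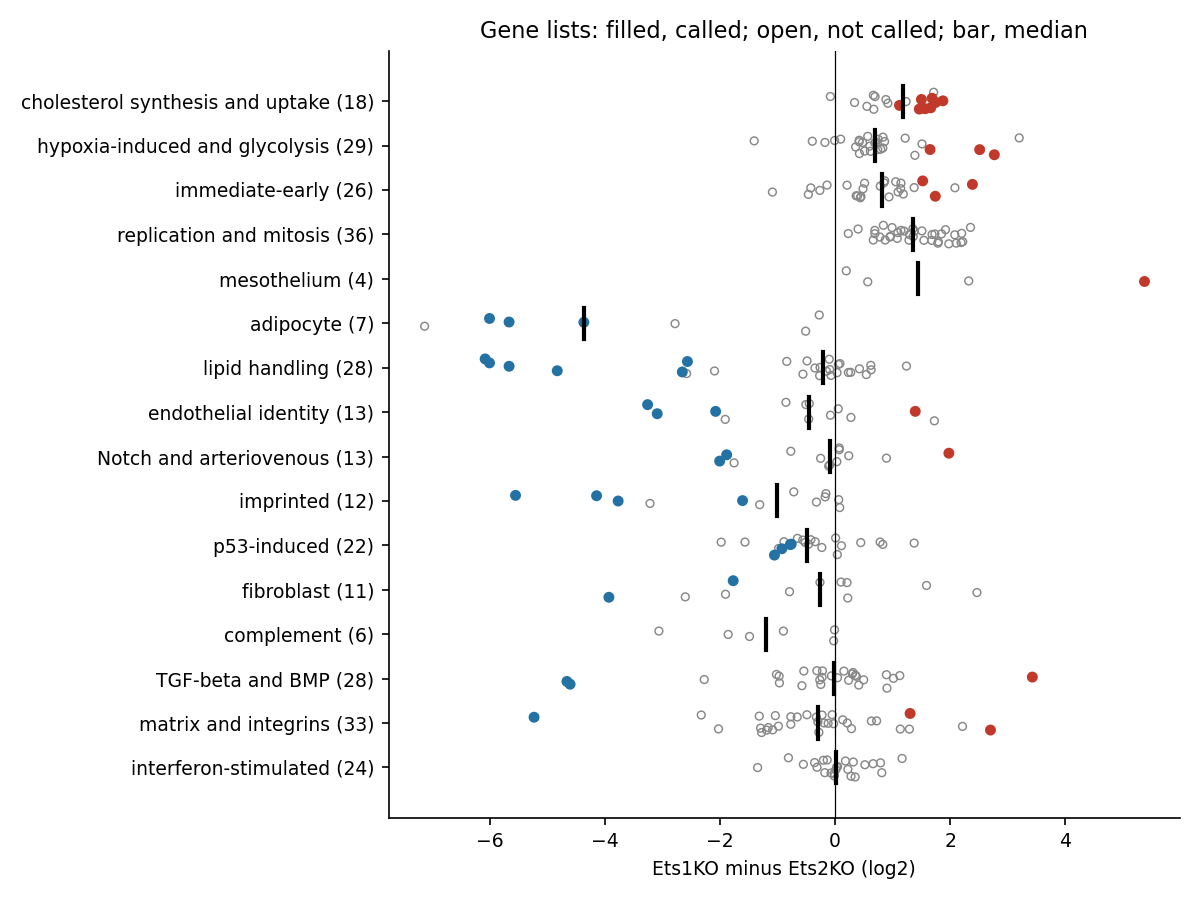
Differences between groups (Ets1KO minus Ets2KO, log2, horizontal axis) for the measured members of 16 gene lists, with the number measured in brackets. Filled points were called, open points were not, and the vertical bar is the list median. Cholesterol genes lie almost wholly above 0 and adipocyte genes wholly below it.

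**Figure D4:**
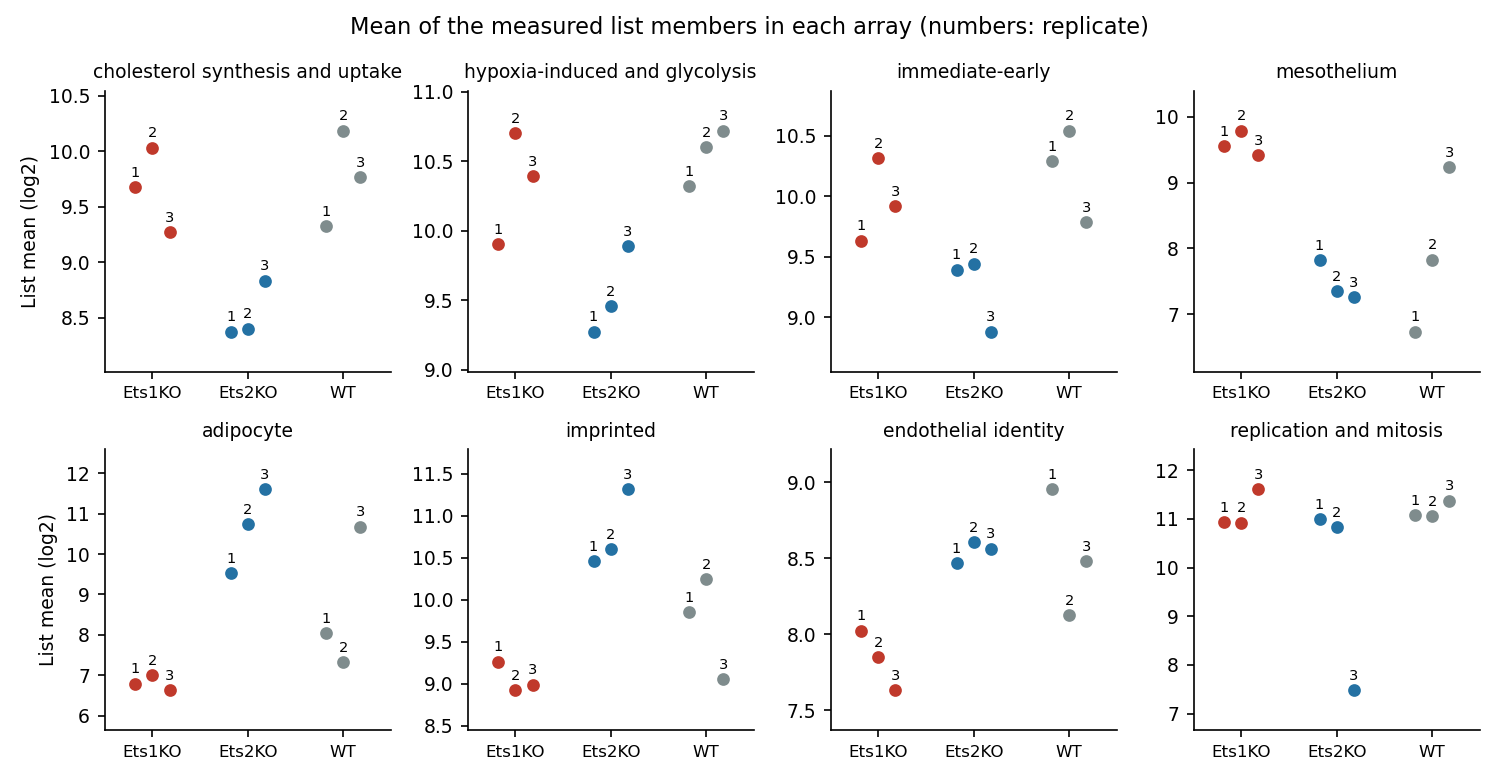
Mean log2 expression (vertical axis, scaled per panel) of the measured members of 8 gene lists in each array of Ets1KO (red), Ets2KO (blue) and WT (grey), numbered by replicate. In the replication panel Ets2KO replicate 3 reads 7.48 and every other array reads above 10.

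A number of lists held no call in the fit to all 6 arrays, with each gene read at its brightest probe set. These were the ETS factors (12 measured), smooth muscle (7), pericyte (7), lymphatic endothelium (1), MAPK feedback and growth factors (16), survival and death (16), NF-kappa-B feedback (14), interferon-stimulated (24), complement (6), extracellular proteases and inhibitors (15), antioxidant and NRF2 (20) and replication and mitosis genes. Limma made 0 calls in each, and at an unadjusted p below 0.05 there were 4 ETS factors, 1 smooth muscle, 1 pericyte and 0 lymphatic genes, a measure that 25.7% of all genes met. By the same measure there were 4 MAPK, 4 survival, 5 NF-kappa-B, 3 interferon, 2 complement, 5 protease and 3 antioxidant genes. Some of these lists gained calls when 1 array was left out. Without Ets2KO replicate 3, Ets2, Etv4, Dusp6, Spred1, Bcl2, Tnfaip3, Mmp3 and Gsr were called, beside Cdc6 and Cdt1. Cd55 was called without Ets1KO replicate 1, and Serping1 without Ets2KO replicate 1. The smooth muscle, pericyte, lymphatic and interferon lists gained no call in any of these fits. The medians of the interferon, antioxidant and NF-kappa-B lists were 0.02, -0.0025 and -0.02. All 6 complement genes were below 0, with a median of -1.19, and Cd55, which protects cells from complement, differed by -3.06 (SE 0.61, adjusted p = 0.0523). The other Cd55 probe sets differed by -3.68 (adjusted p = 0.0581) and -3.45 (adjusted p = 0.0470). The last of these passed the threshold, but genes were counted at their brightest probe set. Acta2, smooth muscle actin, read 10.70, 11.23 and 13.35 in the Ets1KO arrays, against 9.36, 9.35 and 9.12 in the Ets2KO arrays, a difference of 2.48 (SE 0.66, adjusted p = 0.092). Smooth muscle list means were 8.04, 8.67 and 9.05 in the Ets1KO arrays, against 8.47, 7.90 and 8.12 in the Ets2KO arrays and overlapped. Rgs5, a pericyte marker, differed by -2.73 (SE 1.70, adjusted p = 0.357), and pericyte list means were 8.10, 8.83 and 8.31 in the Ets1KO arrays, against 8.87, 8.20 and 9.66 in the Ets2KO arrays, with the highest in Ets2KO replicate 3. Ifit2, an interferon-induced gene, differed by 1.16 (SE 0.23, adjusted p = 0.0504), and Mmp3, the matrix protease stromelysin, differed by -3.48 (SE 1.15, adjusted p = 0.134). Among death genes Fas, a death receptor, differed by -1.57 (SE 0.43, adjusted p = 0.0979) and Birc5, the mitotic protein survivin, differed by 2.08 (SE 1.45, adjusted p = 0.406).

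The called genes were spread over the autosomes. The share of genes called was between 2.56% on chromosome 10 and 5.83% on chromosome 15, where 26 of 446 genes were called and 20 of these were higher in Ets1KO. Among the 40 genes nearest to Ets1 in order on chromosome 9, 3 were called (Rp9, Herpud2 and Rpusd4). Among the 31 measured near Ets2 on chromosome 16, 2 were called (Rcan1 and Cbr3). Over all genes 3.97% were called.

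WT arrays were set beside the called genes as a description. Sex-linked transcripts were not read in the WT arrays, so the part of sex in the position of WT was not tested. The WT mean was nearer to the Ets1KO mean in 263 of the 424 genes (62.0%), against 59.2% of the genes that were not called. The WT range overlapped the range of Ets1KO and not Ets2KO in 181 genes, of Ets2KO and not Ets1KO in 86, of both in 87 and of neither in 70. Overlap was not counted in genes that were not called, so these counts cannot be read as particular to the called genes. Fst, Hk2, Egln3, P4ha2, Nr4a1, Msmo1, Fdps, Stard4 and Sqle were among those overlapping Ets1KO. Grb10, Thbd, Cd34, Lpl, Fabp4 and Mapk13 were among those overlapping Ets2KO, and Podxl, Anxa8, Apoe, Notch1, Lnx1 and Klhl22 among those overlapping neither. Over all genes the median SD was 0.182 in Ets1KO, 0.222 in Ets2KO and 0.249 in WT. Over the called genes it was 0.199, 0.226 and 0.523. A call itself requires a spread in Ets1KO and Ets2KO that is small beside their difference and requires nothing of WT.

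**Figure D5:**
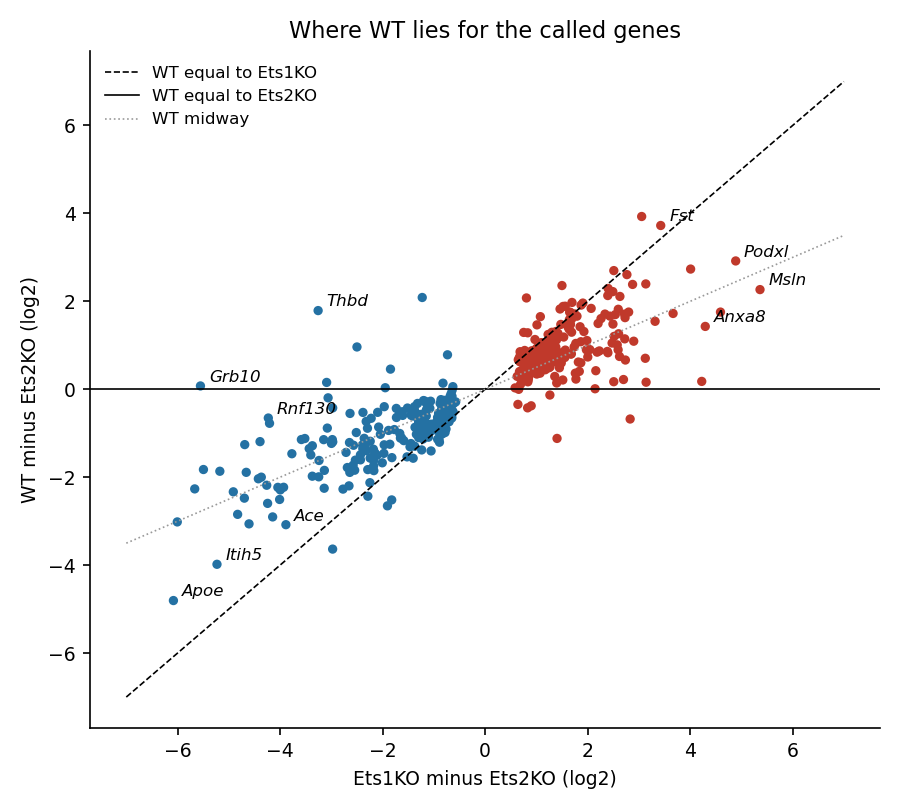
For each of the 424 called genes, the difference WT minus Ets2KO (log2, vertical axis) against Ets1KO minus Ets2KO (log2, horizontal axis), in red where Ets1KO was higher and blue where it was lower. Points on the dashed line have equal WT and Ets1KO means, points on the solid horizontal line have equal WT and Ets2KO means, and the dotted line marks WT midway. The 263 genes nearer to Ets1KO lie on the dashed-line side of the dotted line.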

How the data were processed

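Expression was measured on Affymetrix mouse arrays, 3 columns of values per group. The deposited values are log2 expression per probe set, from RMA, according to the submitters' processing notes. Its version is not given in the sources here. They were used without further scaling. Probe sets were named with the platform annotation: 18824 of 20523 carry 1 symbol, 549 several and 1150 were unlisted. Genes on chromosomes X (576 probe sets) and Y (3) were left out, and 27 with no known chromosome were kept. Array number limits the precision, and depth does not apply.

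Group means were fitted to 6 arrays with limma 3.58.1 in R 4.3.3 (lmFit, eBayes, 4 residual and 2.17 prior degrees of freedom), with Benjamini-Hochberg adjustment over 18245 probe sets. All adjusted p-values are from this limma fit or its alternatives. SE is limma's. Data were simulated with independent normal errors at the fitted variances and 200 changed probe sets. Of these, 44 of 100 changed by a log2 of 1 and 85 of 100 changed by 3 were recovered, with 0 false calls. The simulation held no spread shared by many probe sets of an array, such as that of Ets2KO replicate 3. Its counts therefore do not give the rate of false calls in these arrays. Arrays labelled DKO were used only in an 11-array alternative, without the third, which equals the mean of the others in 20521 probe sets within 1e-05. Short descriptions call Ets1KO and Ets2KO samples wild type, and titles and genotypes were followed.

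Genes named are the 15 largest called differences in each direction without overlap and with the higher mean above the median of all values (9.12), both targeted genes, and from each of 31 lists at most 4 called genes, or at most 2 uncalled ones if it held no call. Members and lists were chosen with earlier results of these data known. Lists are described by counts and medians. Promoter sequences are from RefSeq, GRCm38.p6. Figures were drawn with matplotlib 3.10.9 in Python 3.11.15.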

Additional observations from a re-analysis of the deposited data

How the results depend on the processing

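All 424 called genes kept their direction in every alternative that included them, which is weak as a check. Fits that add groups, the replicate block or another prior leave each difference unchanged. Where the groups do not overlap, leaving out 1 array cannot reverse the direction. How many genes were called depended on the arrays and the spread used. Called probe sets numbered 690, against 451 with WT as a further group, 424 with WT and DKO, 3927 with array weights and 26 with the replicate block; called genes numbered 424, against 270, 269, 2330 and 17. Leaving out 1 array gave 53 to 1061 probe sets and 34 to 651 genes. The causes were not tested; fewer arrays leave fewer residual degrees of freedom. Median subtraction, quantile normalisation, a filter on low values, a trended robust prior, leaving out genes with no chromosome and keeping X and Y stayed within 1.5 times of both counts. Fits of 1 value per gene, by either rule, stayed within 1.5 times of the gene count and have no probe set count. The Ets1 difference was -0.76 with array weights (adjusted p = 0.0284) and -1.11 to -0.68 with 1 array left out. With the mean of probe sets per gene, Ets1 differed by -0.47 (adjusted p = 0.276) and Ets2 by 0.43 (adjusted p = 0.152). The Ets2 difference was 0.91 with array weights (adjusted p = 0.0128) and 0.52 to 0.91 with 1 array left out, passing the threshold only without Ets2KO replicate 3 (0.91). Same-numbered arrays had correlations of -0.018, -0.128 and -0.242 between their deviations from group means. Deviations within a group of 3 arrays sum to 0, so these values cannot show whether same-numbered arrays share a batch.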

Other observations

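The 26 genes that kept their call whichever array was left out include several outside the lists described above, and those given here were chosen after their values were seen. Rnf130, a ubiquitin ligase with a RING domain, read 6.82, 6.85 and 7.34 in the Ets1KO arrays, against 11.01, 11.02 and 11.66 in the Ets2KO arrays, lower in Ets1KO at a difference of -4.23 (SE 0.24, adjusted p = 0.00339). Olfm1, a secreted olfactomedin best known from neurons, read 6.23, 6.07 and 6.04 in the Ets1KO arrays, against 10.06, 10.15 and 10.27 in the Ets2KO arrays, a difference of -4.04 (SE 0.12, adjusted p = 0.000335). In both genes the arrays of a group were close together and far from the other group. WT read 10.95, 10.23 and 10.55 for Rnf130, near Ets2KO, and 9.07, 8.29 and 6.42 for Olfm1, spread between the groups.

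The 26 also held genes of other kinds. Gucy1a2, a subunit of the soluble guanylate cyclase that responds to nitric oxide, read 8.17, 7.89 and 7.95 in the Ets1KO arrays, against 5.66, 5.92 and 5.88 in the Ets2KO arrays, a difference of 2.19 (SE 0.14, adjusted p = 0.00378). Ptk7, a pseudokinase of planar cell polarity, read 6.57, 6.95 and 6.62 in the Ets1KO arrays, against 8.39, 8.31 and 8.46 in the Ets2KO arrays, a difference of -1.67 (SE 0.14, adjusted p = 0.008). Neither gene overlapped between the groups. Map1b, a microtubule-associated protein, read 9.91, 9.87 and 9.87 in the Ets1KO arrays, against 7.61, 7.74 and 7.12 in the Ets2KO arrays, a difference of 2.39 (SE 0.18, adjusted p = 0.00567), and Scarf2, a member of the scavenger receptor class F, differed by -3.40 (SE 0.27, adjusted p = 0.0063).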
